A study of Mus musculus with 4 samples.

Results

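The proteasome is the protease that degrades most ubiquitin-tagged proteins of a cell, and its genes were examined in adult bone marrow mesenchymal stromal cells (MSCs). The members were all genes of the deposited count table whose symbol is Psm, a letter from a to g and a number, which gave 48 of 56980 listed genes. The study asked how embryonic macrophages shape the bone marrow niche of hematopoietic stem cells, and these libraries are its profile of adult MSCs. From each of 4 male wild-type C57BL/6J mice of an in-house inbred colony, aged 14 weeks, 100 bone marrow cells with the markers CD51+ PDGFRa+ and the exclusions CD45- Ter119- CD31- Sca1- were collected by flow cytometry and sequenced as 1 library, from cDNA primed at the poly(A) tail and amplified by PCR. All 4 mice belong to 1 group, so the comparisons below are between genes within a mouse and between mice, and macrophage libraries were not analysed here. Values are given as TPM, a transcript level for which counts were divided by the merged exon length of the gene and all libraries brought to the same total.

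The proteasome has a barrel, the 20S core, made of outer rings of alpha subunits and inner rings of beta subunits, of which beta1, beta2 and beta5 carry the proteolytic sites. A 19S regulator caps the barrel, and its ATPases unfold the substrate while its non-ATPase subunits bind and remove ubiquitin. In cells exposed to interferon-gamma, and in many leukocytes, the subunits beta1i (Psmb9), beta2i (Psmb10) and beta5i (Psmb8) take the place of their standard counterparts, and this immunoproteasome, together with the activator PA28 made of Psme1 and Psme2, is known for producing peptides for MHC class I.

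The libraries held 43545349, 26050230, 42747050 and 22738604 counts on genes in mice 1 to 4, and 16109 to 18907 genes had a count, with the fewest in mouse 2. All 7 MSC genes looked at (among them Itgav and Pdgfra, which encode the CD51 and PDGFRa used in the sort, and Cxcl12) were above 1 TPM in every mouse, as were 4 of 4 osteoblast genes, led by Bglap (osteocalcin) with 55668 to 156730 TPM. Of 6 general leukocyte genes, 4 had 0 counts in every mouse and the 6 together had 4, 423, 1 and 50 counts, of which 421 were from Lcp1 in mouse 2. Ptprc, which encodes CD45, had 2, 2, 0 and 50 counts. Of 5 macrophage genes, 3 were at 0 in every mouse, and the 5 summed to between 0.254 TPM in mouse 2 and 6.72 TPM in mouse 3. The 5 neutrophil genes summed to between 5.96 and 24.5 TPM, the 5 B and T cell genes to at most 1.46 TPM, and the 4 endothelial genes to at most 0.235 TPM. The erythroid genes Hba-a1, Hbb-bs and Alas2 differed widely and summed to 3725, 21.1, 1298 and 270.03 TPM in mice 1 to 4. In bulk libraries of this kind, a different number of cells of a type and a different amount of RNA per cell cannot be told apart.

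Nearly the whole complex was detected. A median above 1 TPM was reached by 47 of the 48 members, where 22.9% of the 52125 genes with a length and 44.2% of the 21922 protein-coding genes did. The value exceeded 1 TPM in every mouse for 45 members, against 15.4% of all genes and 30.1% of the protein-coding ones. The exceptions were Psmb11, Psma8 and Psmd14, which are described below. Together the 48 genes took 0.486%, 0.445%, 0.574% and 0.452% of the counts of mice 1 to 4, and 0.506 ± 0.0823% of the TPM (mean ± SD, n = 4).

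**Figure D1:**
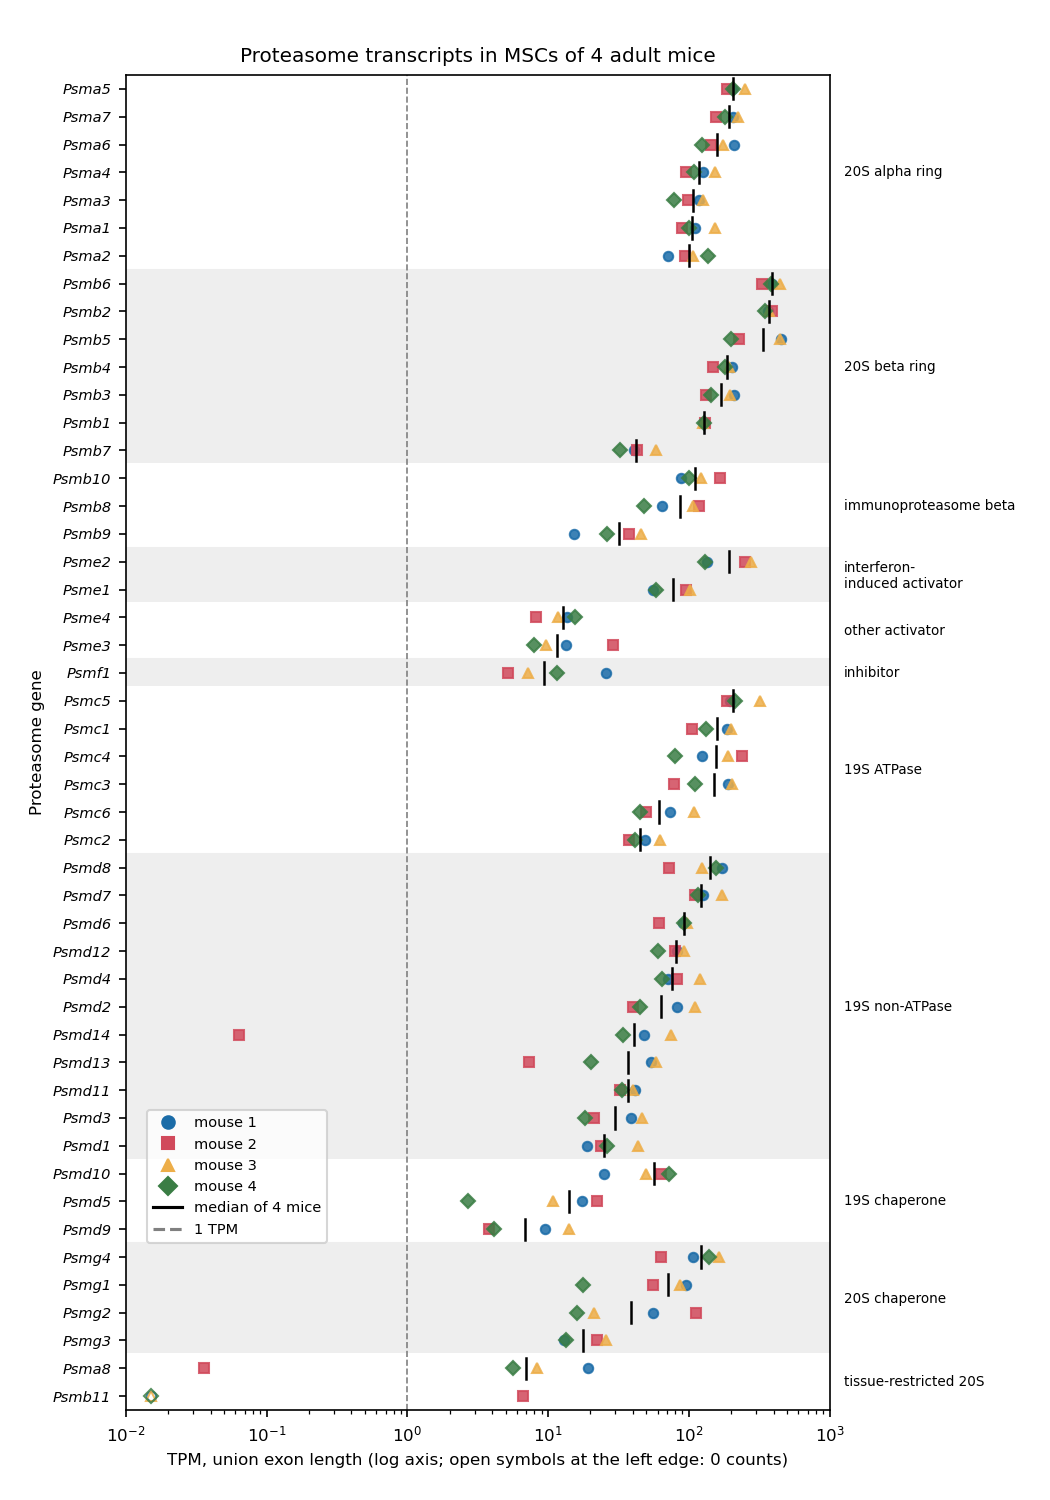
Level of each of the 48 proteasome genes in MSCs of 4 mice, in TPM on a log axis, grouped by the part of the proteasome and ordered by median within each part; points are mice, black bars the median of 4 mice, and the dashed line marks 1 TPM. Of the parts shown, the 20S beta ring has the highest median over its genes (187 TPM). The alpha ring (118 TPM) lies below the 19S ATPases (154 TPM), and the immunoproteasome genes overlap the rings in part. Single points far to the left are Psmd14 and Psma8 in mouse 2, while Psmb11 had counts in mouse 2 alone (open symbols for the other 3 mice overlie each other).

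Among the 20S core genes, the 7 alpha ring genes were close to each other. Their medians ran from 101 TPM for Psma2 (alpha2) to 205 TPM for Psma5 (alpha5), a 2.04-fold range, with a median of 118 TPM. Psma5 had 204, 188, 250 and 207 TPM in mice 1 to 4, and was the member of the ring that varied least (coefficient of variation, CV, 12.4%). Psma2 had 71.1, 93.8, 107.9 and 136 TPM and varied most (CV 26.6%), and it lay below Psma5 in every mouse. The other 5 genes had medians of 105 to 193 TPM. The narrow range depends on the gene length. With the length of the principal transcript of each gene, as named in the annotation, the alpha ring ran from 90.2 TPM for Psma2 to 457 TPM for Psma7 (alpha4), a 5.07-fold range.

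The 7 standard beta ring genes had a median of 187 TPM and spread more widely, from Psmb7 to Psmb6. Psmb6, the caspase-like subunit beta1, had 393, 332, 444 and 381 TPM in mice 1 to 4, and its median exceeded the median of 99.5% of the 52125 genes. Psmb7, the trypsin-like subunit beta2, had 40.8, 42.8, 58.4 and 32.3 TPM. Psmb5, the chymotrypsin-like subunit beta5, had 452, 227, 442 and 201 TPM, so mice 1 and 3 stood above mice 2 and 4, and it varied most in the ring (CV 40.8%). The non-catalytic subunit beta6, Psmb1, had 127, 131, 127 and 127 TPM, with a CV of 1.6%, the lowest of all 48 members. The factors that DESeq2 gives to rescale these libraries ran from 0.968 to 1.07, a wider spread. A CV as low as that of Psmb1 therefore holds only for TPM as scaled here. Psmb2, the non-catalytic beta4, had 369 ± 17.3 TPM (SD, n = 4). For both genes the 4 mice lay close together. The other 2 genes, Psmb3 and Psmb4, had medians of 169 and 187 TPM.

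The 6 ATPases of the 19S base, which form the ring that feeds substrate into the core, had a median of 154 TPM. Psmc5 (Rpt6) was highest, with 196, 188, 322 and 213 TPM, and mouse 3 stood above the others. Psmc2 (Rpt1) was lowest, with 48.8, 37.8, 62.6 and 41.7 TPM, and also varied least (CV 22.9%). Psmc4 (Rpt3) varied most, with 123, 241, 190.5 and 79.7 TPM (CV 44.9%), and was high in mice 2 and 3. Psmc1, Psmc3 and Psmc6 had medians of 160, 151 and 61.4 TPM. Which ATPase gene was highest or lowest depended on the gene length. With principal transcript lengths, Psmc3 had the highest median (169 TPM) and Psmc6 the lowest (67.9 TPM).

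The 11 non-ATPase subunits of the 19S regulator were lower, with a median of 63.6 TPM. The lid subunit Psmd8 (Rpn12) had the highest median, with 172, 72.8, 124 and 156 TPM in mice 1 to 4, and the base scaffold Psmd1 (Rpn2) the lowest, with 18.8, 23.7, 43.4 and 26.1 TPM. Psmd11 (Rpn6), a lid subunit, varied least, with 41.7, 32.6, 39.9 and 33.8 TPM. Of the ubiquitin receptors, Psmd4 (Rpn10) had a median of 76.6 TPM, Psmd2 (Rpn1) 63.6 TPM and Adrm1 (Rpn13), which bears no Psm symbol, 45.8 TPM. The lid genes Psmd3, Psmd6, Psmd7 and Psmd12 had medians of 30.1, 91.9, 121 and 81.2 TPM. Psmd14 varied most. It encodes Rpn11, the deubiquitinase of the lid that removes the ubiquitin chain before degradation, and it had 2387, 2, 3615 and 992 counts, which correspond to 48.1, 0.0638, 74.2 and 34.04 TPM. Mouse 2 thus had fewer Psmd14 counts than the 3 taken as the smallest detectable value (0.0956 TPM there), and no exon of this gene overlaps another gene or has a near-identical copy. Another lid gene, Psmd13 (Rpn9), was also lowest in mouse 2, with 53.7, 7.37, 58.2 and 20.1 TPM. The proteasome carries further deubiquitinases, Usp14 and Uchl5, and these had 16.5, 1.87, 16.4 and 8.07 TPM and 41.9, 11.7, 52.7 and 36.5 TPM. All 3 deubiquitinases were therefore lowest in mouse 2. Of the 20 Psmc and Psmd genes, 12 were lowest in mouse 2, as were 7 of the 14 ring genes and 33% of the 11948 genes with a median above 1 TPM.

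The ring genes had a higher median than the pooled 19S genes in each mouse. The median of the 14 alpha and beta ring genes was 203, 137, 184 and 140 TPM. That of the 20 Psmc and Psmd genes was 72.3, 55.5, 94.7 and 53.1 TPM. The classes within this pool differed. The 6 ATPases had medians of 155, 91.6, 195 and 95.7 TPM, in mouse 3 above that of the rings. The 11 non-ATPase genes had medians of 71.1, 39.9, 92.1 and 45.2 TPM. The difference between the ring median and the pooled 19S median was 1.28 ± 0.23 in log2(TPM + 1) (SD, n = 4 mice), or 1.09 ± 0.24 without the base assembly chaperones Psmd5, Psmd9 and Psmd10. With principal transcript lengths it was 1.29 ± 0.22. Without any length correction it was 0.65 ± 0.16, a value that does not compare levels, since longer transcripts give more counts.

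The genes that help to build the complex had lower levels as groups, with medians of 54.7 TPM for the 4 chaperones of the 20S core and 14.2 TPM for the 3 of the 19S base. The 20S assembly chaperones Psmg1 (PAC1) and Psmg2 (PAC2), which pair with each other, had 96.0, 55.4, 86.2 and 17.8 TPM and 55.9, 112, 21.3 and 16.0 TPM. Both were lowest in mouse 4. Psmg3 (PAC3) had 13.0, 22.1, 25.6 and 13.4 TPM, and its partner Psmg4 (PAC4) had 106, 63.0, 165 and 139 TPM. The 2 members of each pair therefore did not follow the same order over mice. Among the base chaperones, Psmd10 (gankyrin) had a median of 56.5 TPM, Psmd5 of 14.2 TPM and Psmd9 of 6.84 TPM. Pomp, the maturation factor of the core that bears no Psm symbol, had 52.0, 38.4, 62.1 and 33.7 TPM.

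Subunits known from testis and thymus were low and unevenly detected. Psma8, the testis form of alpha4, had 840, 1, 361 and 146 counts and 19.1, 0.036, 8.38 and 5.66 TPM, against 205, 155, 225 and 180 TPM for the standard alpha4 gene Psma7. Psmb11, the beta5t of thymic cortical epithelium, had 0, 354, 0 and 0 counts, or 6.64 TPM in mouse 2 and 0 in the others. Neither was above 1 TPM in every mouse. Near-identical copies in 41 other genes cover 9.42% of the Psmb11 transcript, and none was found for Psma8.

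The immunoproteasome genes were detected in every mouse. In GRCm38, Psmb8 (ENSMUSG00000024338, chr17:34197721-34201454, plus strand) and Psmb9 (ENSMUSG00000096727, chr17:34181987-34187764, minus strand) lie near each other within the MHC, and Psme1 (ENSMUSG00000022216, chr14:55578123-55581529, plus strand) and Psme2 (ENSMUSG00000079197, chr14:55587441-55591113, minus strand) are neighbors as well, while Psmb10 (ENSMUSG00000031897, chr8:105935735-105938444, minus strand) lies apart. Psmb8 (beta5i) had 64.2, 119, 107.8 and 47.9 TPM, Psmb9 (beta1i) 15.2, 37.5, 45.6 and 26.3 TPM, and Psmb10 (beta2i) 88.0, 166, 122 and 100.1 TPM in mice 1 to 4. Each lay within the range that the standard ring genes span, apart from Psmb9, whose median of 31.9 TPM was below that of all 14. The PA28 genes Psme1 (PA28alpha) and Psme2 (PA28beta) had 55.6, 96.0, 102 and 58.7 TPM and 136, 253, 279 and 129 TPM. Psme2 was above Psme1 in every mouse.

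Each immunoproteasome beta gene was set against the standard subunit whose place it takes. Psmb5 exceeded Psmb8 in 4 of 4 mice, by 1.95 ± 0.77 in log2(TPM + 1) (SD, n = 4), and Psmb6 exceeded Psmb9 in 4 of 4, by 3.69 ± 0.67. For the third site the order was the other way, with Psmb7 minus Psmb10 at -1.42 ± 0.42 and Psmb10 the higher gene in 4 of 4 mice. In exact two-sided sign-flip permutation tests over the 4 mice, each of these differences had p = 0.13, which no result on 4 mice can undercut, and an adjusted p of 0.13 (Benjamini-Hochberg, 5 pairs). No pair of this design can pass 0.05.

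The size of these differences, and for 2 of the sites the direction in single mice, depended on the gene length. The merged exons of Psmb7 hold 3421 bases, while its principal transcript holds 1160, and for Psmb8 the lengths are 3381 and 1628 bases. With principal transcript lengths, Psmb7 minus Psmb10 was 0.07, -0.77, 0.12 and -0.45 in mice 1 to 4 (mean -0.26 ± 0.43, exact permutation p = 0.5, adjusted p = 0.5), so neither gene stood above the other beyond the spread between mice. With coding lengths Psmb10 was the higher gene in 4 of 4 mice again, by a smaller margin (Psmb7 minus Psmb10 -0.45 ± 0.43, exact permutation p = 0.13, adjusted p = 0.16). With principal transcript lengths, Psmb5 minus Psmb8 was 1.75, -0.12, 0.98 and 1.003 in mice 1 to 4. Psmb8 was the higher gene in mouse 2 (mean difference 0.90 ± 0.77, exact permutation p = 0.25, adjusted p = 0.312). With coding lengths Psmb5 minus Psmb8 fell to 0.12 ± 0.77, and with no length to 0.05. Psmb6 minus Psmb9 remained above 2 in each mouse under the 3 lengths. The beta1 site is thus the one at which the standard gene was the higher one in every mouse whichever length was used.

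**Figure D2:**
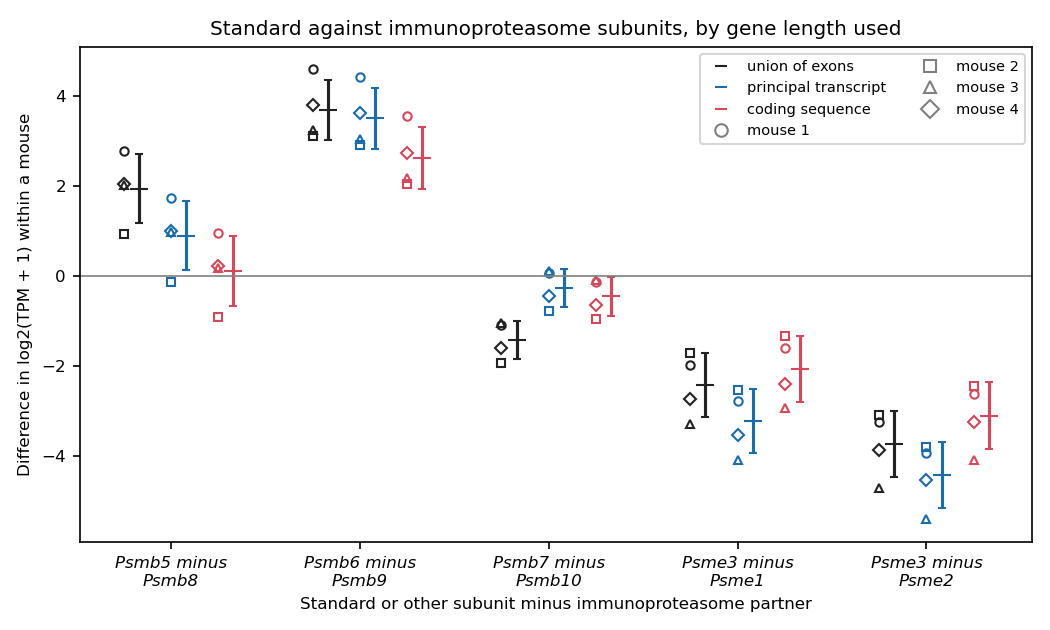
Difference within each mouse between a standard or other subunit and its immunoproteasome partner, in log2(TPM + 1), for 5 pairs under 3 gene lengths; open symbols are mice, and the crossbars and whiskers beside them the mean and SD of 4 mice. Values above 0 mean that the standard gene is higher, and Psmb7 minus Psmb10 moves from -1.42 with merged exons to -0.26 with the principal transcript, next to the line at 0.

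Summed over the 3 sites, Psmb8, Psmb9 and Psmb10 made up 15.9%, 34.9%, 22.6% and 22.1% of the TPM of the 6 catalytic beta genes, or 23.9 ± 7.95% (SD, n = 4). Mouse 2 had the highest share. With principal transcript lengths the share was 23.3 ± 7.28%, and with coding lengths it was 32.5 ± 8.81%. By site, Psmb8 held 21.4 ± 9.24% of the beta5 pair, Psmb9 7.41 ± 2.91% of the beta1 pair and Psmb10 72.8 ± 5.77% of the beta2 pair, or 35.4 ± 12.2%, 8.44 ± 3.29% and 54.4 ± 7.33% with principal transcript lengths. These are shares of transcripts and not of assembled subunits.

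Among the activators that can replace the 19S cap, PA28alpha and PA28beta dominated. Psme3, which encodes the nuclear PA28gamma, had 13.4, 28.8, 9.64 and 7.97 TPM, and Psme4, the activator PA200, had 13.7, 8.25, 11.8 and 15.5 TPM. Psme1 and Psme2 together held 90.4 ± 3.08% of the TPM of the 4 activator genes (SD, n = 4). Psme3 was below Psme1 and Psme2 in 4 of 4 mice, and Psme3 minus Psme1 was -2.42 ± 0.72 in log2(TPM + 1) and Psme3 minus Psme2 was -3.73 ± 0.74 (exact permutation p = 0.13 and adjusted p = 0.13 for both). The inhibitor and adaptor PI31, Psmf1, had 26.0, 5.22, 7.20 and 11.6 TPM and was highest in mouse 1.

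The 5 immunoproteasome genes shared an order over mice. In all 5, mice 2 and 3 were both above mice 1 and 4, an order found in 5 of the 42 other members above 1 TPM (Psmb2, Psmb7, Psmc4, Psmd4 and Psmg3) and in 20% of the 11948 genes above 1 TPM. This pattern was noticed in these values and has no test. Among the other members the most frequent order was another, with mice 1 and 3 both above mice 2 and 4 in 23 of 42, compared with 27.6% of the 11948 genes. Mice 1 and 3 also had the 2 largest libraries and the 2 highest erythroid sums, and the part of either in this order was not tested. The order with mice 2 and 3 above mice 1 and 4 held in all 5 genes after scaling by TMM or DESeq2 size factors. When the 10 highest genes of each library were left out of the total, Psmb10 departed from it, with 129, 259, 164 and 167 TPM, and 4 of 5 genes remained.

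**Figure D3:**
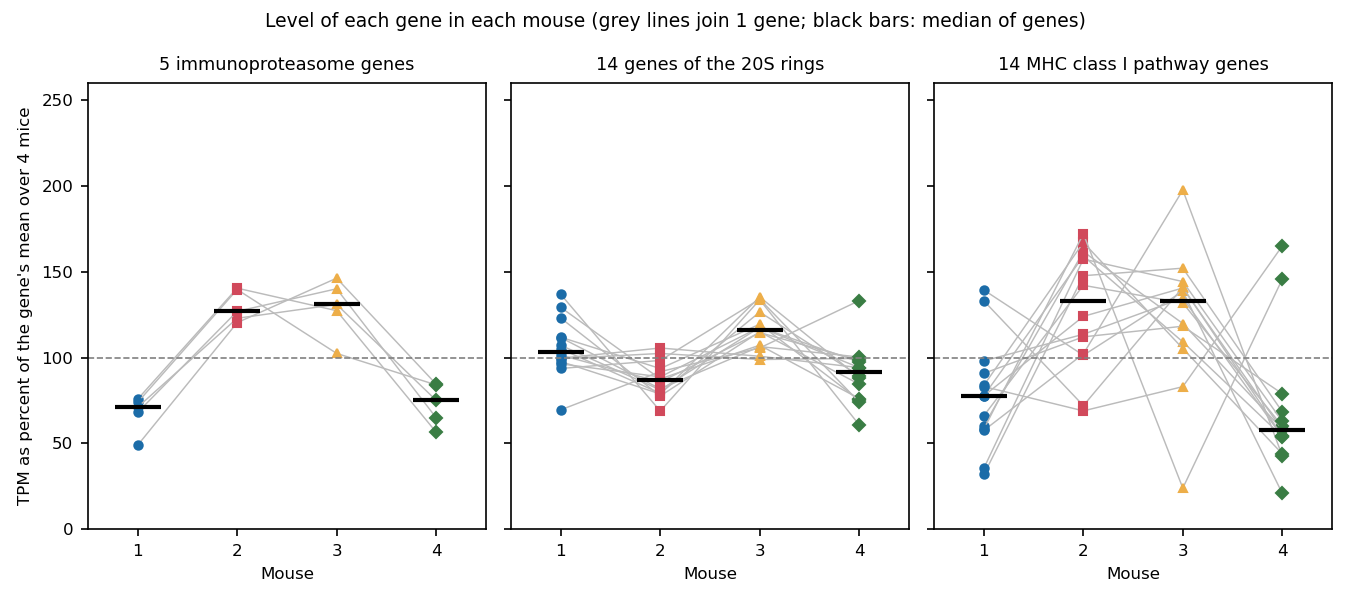
TPM of each gene in each mouse as a percent of its own mean over the 4 mice, for the 5 immunoproteasome genes, the 14 standard ring genes and 14 genes of the MHC class I pathway; points are genes, grey lines join the points of 1 gene (the mice have no order), and black bars are medians over genes. Mice 2 and 3 lie above mice 1 and 4 for all 5 immunoproteasome genes and for 10 of the 14 MHC class I genes, beside 20% of the 11948 genes above 1 TPM. The ring genes are highest mostly in mouse 3 and mouse 1.

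The same order was counted in other genes of the peptide pathway. The counts below stand beside a share of 20% of the 11948 genes above 1 TPM with this order. Of 14 genes for MHC class I presentation and its interferon control, 10 had mice 2 and 3 above mice 1 and 4. Tap1, a subunit of the peptide transporter, had 6.76, 31.4, 32.3 and 14.5 TPM, and Tapbp (tapasin), which loads peptides on MHC class I, had 85.2, 174, 120 and 59.2 TPM. The class I heavy chain H2-K1 had 913, 1963, 1820 and 829 TPM, with mice 2 and 3 well separated from the others. The 4 genes with another order were the trimming peptidase Erap1, the class I transactivator Nlrc5, the transcription factor Irf1 and the receptor chain Ifngr1. Irf1 had 50.6, 36.8, 50.3 and 7.57 TPM. Of 11 proteasome partner genes 5 had this order, namely Adrm1, Akirin2, Ddi2, Nfe2l1 and Nfe2l2, and of 11 ubiquitin and shuttle genes 3 did (Uba1, Ubqln4 and Vcp). Nfe2l1, a transcription factor known to raise proteasome genes when the proteasome is inhibited, had 16.8, 46.3, 35.7 and 13.3 TPM.

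Leukocytes carry the immunoproteasome, so their markers were set beside these values. The 6 leukocyte genes summed to 0.0182, 3.99, 0.00609 and 0.264 TPM in mice 1 to 4. The sum was highest in mouse 2, where Psmb8 and Psmb10 were highest, and near 0 in mouse 3, where Psmb9, Psme1 and Psme2 were highest. Nearly all of the value of mouse 2 was from Lcp1 with 3.98 TPM, while Ptprc was highest in mouse 4 with 0.264 TPM. For Psme1 and Psme2, which of mice 2 and 3 was higher depended on the scaling. Without the 10 highest genes in the total, Psme1 had 150 TPM in mouse 2 and 138 TPM in mouse 3. Psme2 then had 394 and 376 TPM. Macrophage genes summed to 0.533, 0.254, 6.72 and 1.008 TPM, nearly all of the value of mouse 3 from Cd68 with 6.63 TPM, while Adgre1, Csf1r and C1qa were at 0 in every mouse. Erythroid genes went neither with the 5 genes nor against them, being high in mice 1 and 3. Of the 7 MSC genes, Cxcl12 alone had the order of the immunoproteasome genes, with 983, 4329, 2224 and 1079 TPM. Lepr, another niche gene, had 31.9, 120, 44.5 and 64.8 TPM. The part of cell composition in the differences between mice was not tested.

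Promoters were looked at for motifs linked to these programs. RefSeq windows from 250 bases before to 50 bases after the transcription start (GRCm38.p6) were matched by symbol to 40 of the 48 members, with 43 windows because Psma6, Psmc2 and Psme2 have 2 each. Both strands were searched for the core of the antioxidant response element (TGAC and GC with any 3 bases between them), the gamma-activated site (TTC and GAA with any 3 bases between them), the core of the interferon-stimulated response element (GAAA and GAAA with any 2 bases between them) and the CCAAT box. Among the 9 genes of the 5 pairs tested above, Psmb7 had no window and was not searched. Of the rest, 4 held a match of the first 3 kinds. They are shown 5′ to 3′ on the strand of the gene with the match in capitals and at most 10 bases to either side.

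Psmb5 (antioxidant type, chr14:54618024-54618052, minus strand): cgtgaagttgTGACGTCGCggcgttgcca
Psmb6 (antioxidant type, chr11:70525338-70525356, plus strand): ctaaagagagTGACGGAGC
Psmb8 (gamma-activated type, chr17:34198088-34198116, plus strand): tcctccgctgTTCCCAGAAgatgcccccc
Psme1 (interferon-stimulated type, on the opposite strand, chr14:55578493-55578522, plus strand): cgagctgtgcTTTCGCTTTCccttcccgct

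The match in Psmb5 lies from 47 to 39 bases before the RefSeq start, that in Psmb6 ends at the last base before it, that in Psmb8 lies from 97 to 89 bases before it and that in Psme1 at bases 10 to 19 after it. The GENCODE annotation begins Psmb8 and Psme1 at bases 34197721 and 55578123, upstream of these matches, so that where transcription starts in MSCs is not settled by the windows. Over all 32851 windows, the antioxidant type was found in 12.4%, the gamma-activated type in 8.30%, the interferon-stimulated type in 3.44% and the CCAAT box in 37.4%. Among the 43 member windows the counts were 6, 3, 5 and 14, or 14.0%, 6.98%, 11.6% and 32.6%. The antioxidant type was in Psmb5, Psmb6, Psmc6, Psmd9, Psmd12 and Psme4, and the gamma-activated type in Psmb8, Psmd2 and Psmg1. The interferon-stimulated type was in Psme1 and in Psmb3, Psmd4, Psmd9 and Psmg4, which are not immunoproteasome genes. No window of Psmb9, Psmb10 or Psme2 held one of the first 3 motifs, which says only that these letters are not in these windows. The matches are a description of sequence and not sites shown to be bound in these cells.

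The spread between mice was that of other genes of the same level. The 22 members with a mean of 100 to 1000 TPM had a median CV of 24.0%, beside 23.5% for all 911 genes of that level, and the 23 members from 10 to 100 TPM had 40.2%, beside 42.4% for 4673 genes. Counting error alone gave a median CV of 1.57% and 2.48% for these members, a figure that leaves out the error of amplifying cDNA from 100 cells. The immunoproteasome genes had CVs of 28.9% to 42.4%. Over all 48 members the median CV was 32.3%.

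**Figure D4:**
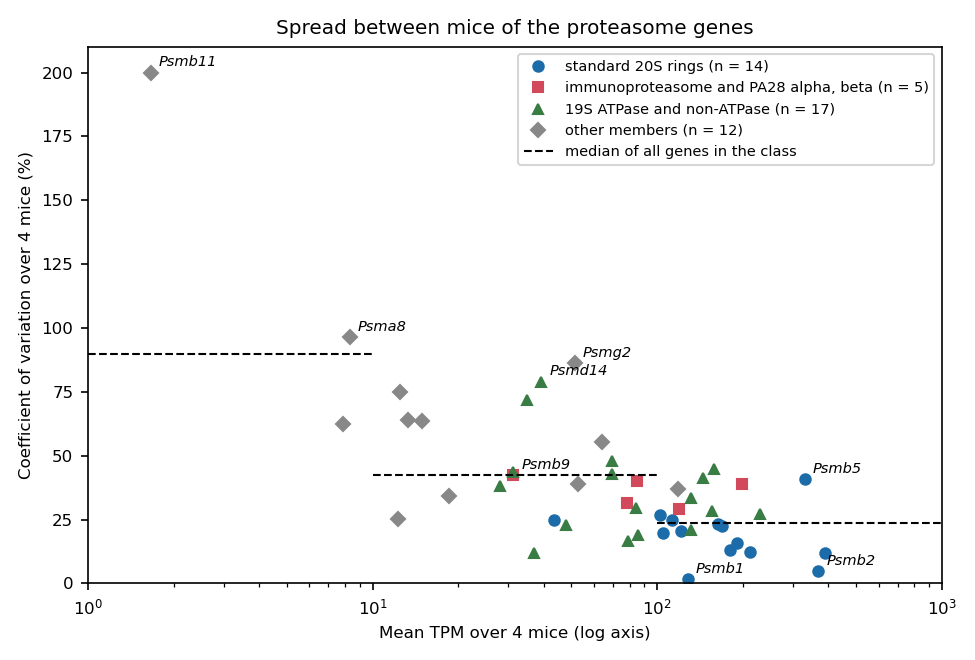
Coefficient of variation over 4 mice, in percent, against mean TPM on a log axis for the 48 proteasome genes, colored by the part of the complex; dashed lines give the median of all genes from 1 to 10, 10 to 100 and 100 to 1000 TPM. Members fall on both sides of the lines, with Psmb1 at 1.6% and Psmb11 at 200% as the extremes.

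Some values rest on reads that other genes can take. Only uniquely mapped pairs were counted, and near-identical copies elsewhere (at least 95% identity over at least 100 bases) cover 91.9% of the longest Psmd2 transcript, 88.4% of Psmb5, 82.5% of Psme2, 82.0% of Psmc1, 76.7% of Psma4 and 76.5% of Psma5, so the levels of these genes are uncertain, and with them the PA28 share, to which Psme2 contributes. Of the copies of these genes that were found in the table, Psme2b held 6.90% as many counts as Psme2, and the pseudogene Gm3375 2.33% as many as Psmb5. Counting took no account of strand, so that reads in exons shared with a gene on the other strand cannot be assigned. Such exons make up 5.79% of the merged exons of Psmb9 (shared with Tap1), 11.8% of Psmb7 (Nek6), 10.1% of Psmd13 (Sirt3) and 14.7% of Psmb8 (Gm20496, with 0 counts). Sirt3 had 506, 396, 1727 and 330 counts in mice 1 to 4, which in mouse 2 is more than the 277 of Psmd13.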

How the data were processed

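MSCs of 4 mice, all in 1 group by their titles, were analysed from 1 table. According to the submitters' processing notes and the paper, the authors used bcl2fastq 2.20.0, aligned read pairs to GRCm39 with STAR 2.7.10 and assigned pairs with a unique position to exons by featureCounts (Subread 1.6.5), without strand. The deposited values are raw counts per Ensembl gene, not normalized. TPM was computed from them in Python 3.11.15 (pandas 2.3.3, numpy 2.4.6, scipy 1.17.1) with merged exon lengths of GENCODE M21 on GRCm38, not the build of the counts, for 52125 genes. The other 4855 genes got no TPM. A gene whose exons differ between the annotations has a TPM off by the ratio of its lengths. The smallest detectable value was taken as 3 counts, which covers counting error only, as PCR copies are not independent molecules. Pairs of genes were compared with exact sign-flip permutation tests. The TPM code was tested on simulated data, copies were sought with BLAST 2.17.0, and scaling factors came from edgeR 4.0.16 and DESeq2 1.42.0 in R 4.3.3.

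The members, gene lists and tests were chosen with earlier results of these data known. Named with values in every mouse were the immunoproteasome genes and their counterparts, the activators, the inhibitor, the 20S chaperones, the testis and thymus forms, and in each ring or class the highest, lowest, most variable and least variable gene. Psmd13, the other subunits given by their medians and the genes quoted from the lists of partners, MHC class I genes and cell type markers were chosen after their values were seen. For 2 genes of these lists, results are not reported here. Alternatives were other lengths, denominators, cutoffs, pseudocounts and scalings, and leaving out each mouse. The lengths of principal transcripts and coding sequences, the 19S median without chaperones and the count of genes high in mice 2 and 3 were added after seeing the data.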

Additional observations from a re-analysis of the deposited data

Results flagged for a closer look

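Psmb11, the thymus form of beta5, was the only one of 63 values compared over the 4 mice in which a single mouse stood apart by the gap test of Dixon. Mouse 2 had 6.64 TPM (354 counts) and the other 3 mice had 0 counts, so the gap to the nearest other mouse divided by the range was 1, above the critical value of 0.83 for 4 values. With the other 3 mice at 0, any count in mouse 2 gives a ratio of 1, so the ratio does not weigh the size of the 354 counts. Chance gives a gap above the critical value in about 1 of 20 sets of values, or 3.15 of the 63 compared. That rate is for continuous values and does not hold for a gene at 0 counts in 3 mice. The source of the Psmb11 counts was not tested.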

How the results depend on the processing

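Leaving out a mouse in turn kept the immunoproteasome share of catalytic beta TPM between 20.2% and 26.5%, the PA28alpha and PA28beta share between 89.0% and 91.3%, the 20S minus 19S difference between 1.21 and 1.39, the share of all TPM on members between 0.470% and 0.531%, and the number of members above 1 TPM at 47. That number was 44 to 48 under the other cutoffs and summaries. Without length correction, the immunoproteasome share was 33.7%, the PA28 share 76.5% and the 20S minus 19S difference 0.65. With coding lengths the immunoproteasome share was 32.5%. With principal transcript lengths the PA28 share was 93.6% and the share of all TPM 0.625%, with longest transcript lengths the latter was 0.590%, and without the 10 highest genes in the total it was 0.755%. The mean of each of the 5 pair differences kept its direction under every alternative, and Psmb5 minus Psmb8 ranged from 0.05 to 2.29 and Psmb7 minus Psmb10 from -1.54 to -0.26. No p below 0.13 is possible with 4 mice, so a p says nothing on stability here. At these depths 3 counts correspond to at most 0.523 TPM for Psmg4, the shortest member, and less for the longer members. Depth therefore limits only statements on Psmb11, Psma8 and Psmd14 in single mice.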
